A study of Mus musculus with 6 samples.

Results

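The genes described here encode the proteins of the cytosolic ribosome. They are the 86 rows, of 23420 in the count table, whose symbol begins with Rpl or Rps and a digit or is Rplp0, Rplp1, Rplp2 or Rpsa, with the Rps6 kinase genes and rows named as pseudogenes left out. Of these, 46 encode the standard proteins of the large subunit and 31 those of the small subunit, here called core genes. A further 6 are paralogues of large subunit genes (Rpl3l, Rpl7l1, Rpl10l, Rpl22l1, Rpl36al, Rpl39l) and 2 of small subunit genes (Rps27l, Rps4y2). The last, Rps19bp1, is named like the others, but it encodes a protein that binds Rps19 and not a protein of the ribosome.

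Each ribosome holds 1 copy of nearly every ribosomal protein, so cells make these proteins in matched amounts, and their mRNAs are among the most abundant in growing cells. Many begin with a terminal oligopyrimidine tract, a C at the transcription start followed by further C or T bases, through which the kinase mTOR controls their translation. Most core genes have many processed pseudogenes, copies of the spliced mRNA elsewhere in the genome. A few have expressed paralogues with restricted use, among them Rpl10l and Rpl39l in the male germ line and Rpl3l in striated muscle.

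RNA was sequenced from endothelial cells of whole mouse embryos at embryonic day 12.5. All embryos carried Csf1r-iCre, in which the promoter of the myeloid receptor gene Csf1r drives Cre recombinase, and a Rosa reporter that makes the red protein tdTomato after Cre has acted. Cells positive for PECAM1 and negative for CD45, CD11b and KIT were divided by sorting into 3 tdTom+ and 3 tdTom- libraries, and every fold or log2 ratio below is the fitted level in tdTom+ over that in tdTom-. The labels name 3 embryos and no separate control genotype, so the tdTom- fraction comes from embryos of the same genotype, and tdTomato marks past as well as present Csf1r-iCre activity. The p-values measure only the spread between these libraries. In bulk samples, fewer cells of a type and less RNA per cell cannot be told apart.

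Library totals ran from 8919887 to 11767956 counts, and 13142 genes were abundant enough to test, 84 of the 86 ribosomal protein rows among them. The 10 listed endothelial marker genes summed to 7575 to 8082 CPM (counts scaled to a common library total) in tdTom+ and 7614 to 7862 CPM in tdTom- libraries, and 0 of them passed the test. Of 12 listed genes of megakaryocytes and platelets 11 were tested and 6 rose (CPM summed over the 12, 252 to 473 against 33.8 to 51.0). The 6 germ cell genes all fell (summed CPM 0.0935 to 2.11 against 70.9 to 123). Of the tested genes of the other lists, 1 of 6 macrophage genes (Mrc1) and 1 of 8 erythroid genes (Klf1) rose. For hepatoblast and mesenchyme genes 0 of 7 and 0 of 8 tested passed, with median log2 ratios of -1.70 and -0.97. The number of genes with at least 1 count was 14432 to 15300 in tdTom+ and 15850 to 16109 in tdTom- libraries.

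The start of the transcript is shown first, because the oligopyrimidine tract there is what these genes are best known to share. RefSeq promoter windows on GRCm38.p6 matched 65 of the genes, with 77 windows of 250 bases before and 50 bases after a start. The runs below hold 10 bases before and 20 bases from the annotated start, 5′ to 3′ on the gene's strand, with the tract in capitals. The first 5 are examples of tracts that begin exactly at the start:
Rpl15, chr14:18270967-18270996, minus strand: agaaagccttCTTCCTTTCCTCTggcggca
Rpl35, chr2:39005112-39005141, minus strand: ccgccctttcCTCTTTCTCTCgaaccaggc
Rps10, chr17:27635225-27635254, minus strand: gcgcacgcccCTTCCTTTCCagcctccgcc
Rps18, chr17:33955646-33955675, minus strand: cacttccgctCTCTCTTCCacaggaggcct
Rps6, chr4:86857348-86857377, minus strand: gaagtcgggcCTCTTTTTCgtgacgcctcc

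The next runs belong to Rpl9, which had the largest fitted fold above 1 among the tested genes, and to 4 pairs of a core gene and its paralogue. Capitals again mark a C with at least 4 further pyrimidines that begins within 5 bases of the start, and a run without capitals holds none there:
Rpl9, chr5:65391412-65391441, minus strand: gggccctgacggattacaagaacgtgatga
Rpl39, chrX:37085203-37085232, minus strand: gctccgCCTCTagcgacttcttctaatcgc
Rpl39l, chr16:10170218-10170247, plus strand: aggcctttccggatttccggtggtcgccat
Rpl10, chrX:74270806-74270835, plus strand: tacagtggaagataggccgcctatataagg
Rpl10l, chr12:66284382-66284411, minus strand: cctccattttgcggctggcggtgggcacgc
Rps27, chr3:90213629-90213658, minus strand: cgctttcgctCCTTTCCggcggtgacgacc
Rps27l, chr9:66946076-66946105, plus strand: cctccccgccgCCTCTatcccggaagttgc
Rpl22, chr4:152324426-152324455, plus strand: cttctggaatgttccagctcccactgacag
Rpl22l1, chr3:28805498-28805527, plus strand: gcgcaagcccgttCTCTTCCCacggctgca

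A tract of this kind began exactly at the annotated start in 13 of the 77 windows (16.9%), against 2.51% of all 32851 RefSeq windows. Within 5 bases of the start it was found in 31 windows (40.3%), against 18.3% of all. The tract was searched on the sense strand only, and a start annotated a few bases away from the one used moves it out of reach. Over the whole 300-base window and on both strands, CCGGAAG, the core motif of ETS factors, was in 27 windows (35.1% against 8.86% of all) and AAGATGGC, the core motif of YY1, in 8 (10.4% against 2.75%). The GC box GGGCGG was in 47 windows (61.0% against 35.7%) and TATAAA in 7 (9.09% against 13.6%). A window can hold several of these motifs, and a match is a description of letters, not of binding.

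No ribosomal protein gene passed the test for a difference between tdTom+ and tdTom- endothelial cells. Of 84 tested, 0 were higher and 0 lower in tdTom+ cells (quasi-likelihood F-test of edgeR, p adjusted by Benjamini-Hochberg over all genes, threshold 0.05), where 1.58% of all genes tested passed, 0.769% higher and 0.814% lower. An unadjusted p under 0.05 was reached by 1 gene that was higher, Rpl9, and 1 that was lower, Rpl39l, where 10.7% of all genes reached it. DESeq2 called 0 as well, where 502 of 15135 genes passed, and limma-voom 0, where 148 of 13142 did. At an unadjusted p under 0.05 DESeq2 had 2 higher and 2 lower, and limma-voom 2 higher and 1 lower. The share of all genes at that unadjusted p was not counted for DESeq2 or limma-voom. The authors' deposited table lists 0 of the 86 rows with an adjusted p under 0.05, with 0.104 as their smallest value. Of all 15135 rows with an adjusted p there, 211 were higher and 291 lower in tdTom+ at that threshold.

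The fitted differences were small for the more abundant genes, and their intervals were wider than the fitted range. For the 78 genes whose mean log2 CPM was 5 or more, which spanned a mean of 43.5 to 823 CPM, the fitted fold was 0.952 to 1.23. Their 95% intervals lay between 0.768-fold and 1.49-fold, and 1 of them, that of Rpl9, excluded no change. Of the 84 tested genes, 73 had a log2 ratio above 0 (86.9%, where 50% of all genes tested did). The median was 0.10, with a middle range from 0.04 to 0.15, beside -0.00026 over all genes. Over the 6895 genes with a mean log2 CPM of 5 or more the median was 0.01, but abundance above that limit was not matched. The small subunit core genes had a median of 0.12 with 29 of 31 above 0, the large subunit core genes 0.09 with 40 of 46 above 0, and the 6 tested paralogues -0.003 with 3 above 0.

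**Figure D1:**
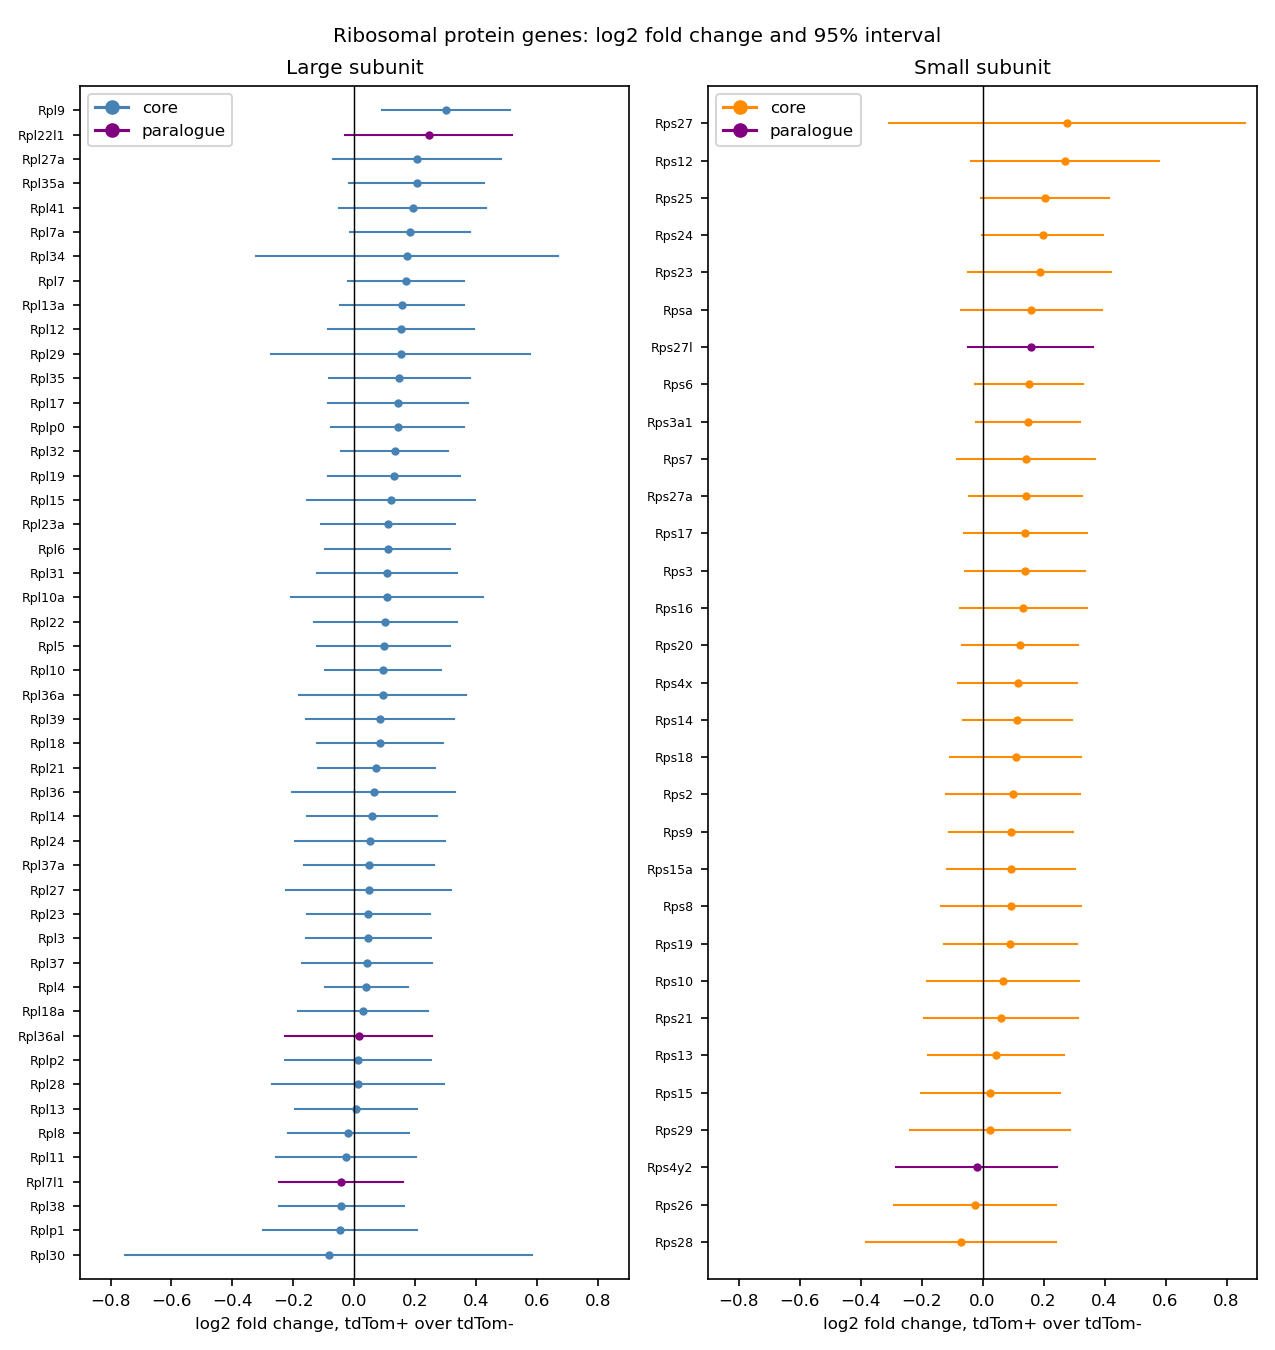
Log2 ratio of tdTom+ over tdTom- (horizontal axis, points) with its 95% interval (lines) for most of the tested genes of each subunit, ordered by fold change; among those left out are Rpl26 and Rpl39l, whose intervals are much wider. Most points lie slightly to the right of 0, and Rpl9 has the only interval among those drawn that lies wholly above it.

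The size of this common offset rested on single libraries. Ribosomal protein genes took 1.38%, 1.64% and 1.53% of all counts in tdTom+ replicates 1, 2 and 3, and 1.41%, 1.37% and 1.50% in tdTom- replicates 1, 2 and 3. The 2 groups overlapped, at 1.51% ± 0.130 against 1.43% ± 0.0680 (SD, n = 3). The core genes of the large subunit took 0.820% ± 0.0736 against 0.778% ± 0.0383 of the counts, and those of the small subunit 0.617% ± 0.0515 against 0.573% ± 0.0287 (SD, n = 3). Counts of the large subunit core were 1.33 ± 0.00864 times those of the small in tdTom+ and 1.36 ± 0.0294 times in tdTom- libraries (SD, n = 3).

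The genes moved together from library to library. The highest of the 6 values lay in tdTom+ replicate 2 for 63 of the 84 tested genes. The lowest lay in tdTom- replicate 2 for 35 and in tdTom+ replicate 1 for 26. Such counts were not made for other genes. Relative to each gene's own mean over the 6 libraries, the median over the 84 genes was -0.07, 0.15 and 0.06 on the log2 scale in tdTom+ replicates 1, 2 and 3, and -0.07, -0.10 and 0.03 in tdTom- replicates 1, 2 and 3. Replicate 1 of the tdTom+ group thus sat among the lower tdTom- libraries. Without tdTom+ replicate 2 the median log2 ratio of the 84 genes was 0.04, with 55 of them above 0. Without tdTom+ replicate 1 it was 0.16, with 78 above 0. In that fit 15 of the 84 genes had an unadjusted p under 0.05, all higher. How many of all genes reached that unadjusted p there was not counted, so the 15 have no background share. After adjustment again 0 of the 84 passed, where 126 of all 13505 genes did.

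**Figure D2:**
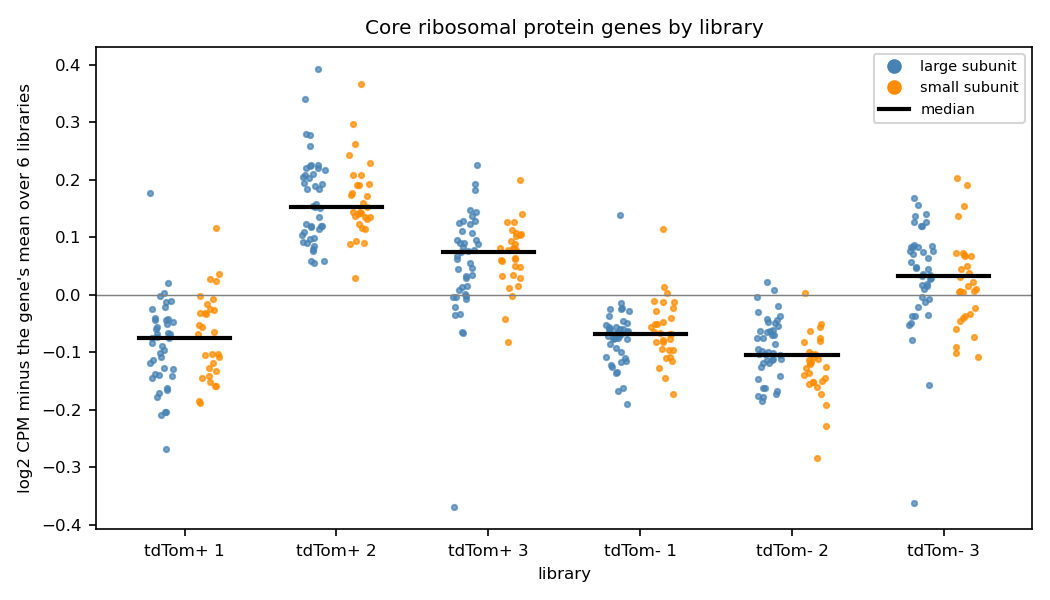
Log2 CPM of 73 core genes whose mean log2 CPM was 5 or more, each minus its own mean over the 6 libraries (vertical axis), by library (horizontal axis), with the median as a bar. In tdTom+ replicate 2 all 73 points lie above 0, and the 6 medians run from -0.10 to 0.15 with tdTom+ replicate 1 among the low ones.

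Within a group the genes varied little. The median SD between libraries of 1 group, on log2 CPM with a prior count of 2, was 0.12 for the 78 more abundant ribosomal protein genes. It was 0.15 for all 6895 genes above the same lower limit, which were not matched to them in abundance. Across the 6 libraries, which all pairs share, the median Pearson r between 2 of the 78 genes was 0.77. Of the 3003 pairs, 97.5% had an r above 0. These values include the difference between groups, and they were not computed for other genes. The largest SDs between libraries of a group belonged to Rpl39l (1.07), Rpl29 (0.33) and Rpl26 (0.30).

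In 11 of the 84 genes all 3 tdTom+ libraries lay above all 3 tdTom- libraries (13.1%, where 7.88% of all genes tested did). They included Rpl7a, Rpl9, Rpl17, Rpl22l1, Rpl35a, Rps3a1, Rps6, Rps12, Rps24 and Rps27a. Only Rpl39l was lower in all tdTom+ than in all tdTom- libraries (1.19%, where 9.35% of all genes were).

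Rpl9, a large subunit protein on chromosome 5 (65388364 to 65391431, mm10), had the largest fitted fold change above 0. It was at 180, 222 and 217 CPM in tdTom+ replicates 1, 2 and 3, and at 172, 164 and 166 CPM in tdTom- replicates 1, 2 and 3. The tdTom- libraries were close together and tdTom+ replicate 1 was the nearest to them. The fold was 1.23 (95% interval 1.07 to 1.42), a log2 ratio of 0.30 ± 0.09 (SE), which did not pass (edgeR adjusted p = 0.207). The adjusted p ran from 0.0712 to 0.523 over the other settings. All of the 50-base stretches of its coding sequence also occur in other annotated genes, so its counts are uncertain.

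Rps12, a small subunit protein, had 53.4, 72.0 and 59.5 CPM in tdTom+ and 50.5, 50.9 and 51.8 CPM in tdTom- replicates 1, 2 and 3. The groups did not overlap, but tdTom+ replicate 1 was close to the tdTom- libraries. Its log2 ratio was 0.27 ± 0.14 (SE, edgeR adjusted p = 0.55). Rps27, which has a zinc finger and a close paralogue, had 0.28 ± 0.26 and Rpl27a 0.20 ± 0.12 (SE, edgeR adjusted p = 0.8 and 0.646), with overlapping groups. At the other end, the log2 ratio was -0.08 ± 0.30 for Rpl30, a protein that in yeast regulates its own splicing, and -0.07 ± 0.14 for the small subunit protein Rps28 (SE, edgeR adjusted p = 0.963 and 0.924).

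The stalk of the large subunit, where elongation factors bind, is built from Rplp0, Rplp1 and Rplp2. Rplp0, its base, had 525, 668 and 550 CPM in tdTom+ and 509, 492 and 579 CPM in tdTom- replicates 1, 2 and 3. Rplp1 had 162 ± 22.5 against 168 ± 14.7 CPM and Rplp2 181 ± 21.6 against 179 ± 16.8 CPM (SD, n = 3). The log2 ratios of Rplp0, Rplp1 and Rplp2 were 0.14, -0.05 and 0.01, and none passed. The groups overlapped in each of the stalk genes.

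Rpl5 and Rpl11 form a particle with 5S ribosomal RNA that binds Mdm2 and restrains p53 breakdown when ribosome assembly is disturbed. Rpl5 had 133 ± 11.3 against 125 ± 7.48 CPM, and Rpl11 102 ± 6.88 against 104 ± 6.79 CPM (SD, n = 3), with log2 ratios of 0.10 ± 0.10 and -0.03 ± 0.10 (SE). Rps20 and Rps14 are further small subunit proteins, the second known from the blood disorder of the 5q deletion. Rps20 had 188 ± 13.4 against 173 ± 7.35 CPM and Rps14 420 ± 31.2 against 388 ± 25.8 CPM (SD, n = 3). Rps19, the gene most often mutated in Diamond-Blackfan anaemia, had 230 ± 26.7 against 216 ± 14.5 CPM (SD, n = 3). None of these passed.

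Rps6, the S6 kinase substrate, had 187, 204 and 186 CPM in tdTom+ and 173, 167 and 179 CPM in tdTom- replicates 1, 2 and 3. The groups did not overlap, and the log2 ratio was 0.15 ± 0.08 (SE, edgeR adjusted p = 0.564). Rps27a, made as a fusion with ubiquitin, had 145, 161 and 154 CPM in tdTom+ against 140, 138 and 139 CPM in tdTom- replicates 1, 2 and 3. Its groups were likewise apart, with a log2 ratio of 0.14 ± 0.08 (SE, edgeR adjusted p = 0.636). Rpsa, which is also known as a laminin receptor, had 220 ± 30.1 against 197 ± 12.4 CPM (SD, n = 3), with a log2 ratio of 0.16 ± 0.10 (SE, edgeR adjusted p = 0.67).

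Several ribosomal proteins are known for effects on particular mRNAs or for roles outside the ribosome. Rpl38, needed for the translation of a subset of Hox mRNAs in the mouse embryo, had 116, 133 and 129 CPM in tdTom+ and 126, 128 and 134 CPM in tdTom- replicates 1, 2 and 3. These values overlapped throughout, and the log2 ratio was -0.04 ± 0.09 (SE, edgeR adjusted p = 0.931). Rpl10a had 59.8 ± 7.09 against 55.6 ± 6.32 CPM, Rpl13a 273 ± 28.3 against 245 ± 14.5 CPM and Rps3, which also acts in DNA repair, 547 ± 65.5 against 497 ± 25.5 CPM (SD, n = 3). Their log2 ratios of 0.11, 0.15 and 0.14 did not pass.

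The core genes on the X chromosome are Rps4x, Rpl10, Rpl36a and Rpl39. They had 192 ± 7.55 against 177 ± 15.3, 204 ± 14.7 against 191 ± 9.87, 68.1 ± 6.95 against 63.9 ± 3.34 and 74.5 ± 3.34 against 70.3 ± 2.46 CPM (SD, n = 3). The log2 ratios were 0.12, 0.09, 0.09 and 0.08, and none passed. Libraries numbered 3 came from cells with Xist, at 1224 and 571 counts, while the other libraries had at most 8, so the sex of the cells differed by number and not by group.

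Paralogues of the core genes took very different shares of their pair's counts, and the shares in the 2 fractions overlapped except for Rpl39l and Rpl10l. Rpl22 is known to hold down the expression of Rpl22l1, and both act in blood cell development. Rpl22l1 had 69.9, 83.9 and 68.9 CPM in tdTom+ and 64.5, 60.0 and 63.7 CPM in tdTom- replicates 1, 2 and 3, with groups that did not overlap. The log2 ratio was 0.24 ± 0.12 (SE, edgeR adjusted p = 0.543), and that of Rpl22 was 0.10 ± 0.11 (SE, edgeR adjusted p = 0.825). Rpl22l1 made up 39.6% ± 3.37 of the pair's counts in tdTom+ and 37.2% ± 0.575 in tdTom- libraries (SD, n = 3), and those ranges overlapped.

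Rps27l, a p53 target gene, held 94.5% ± 1.04 of the counts of Rps27l and Rps27 together in tdTom+ and 94.9% ± 0.470 in tdTom- libraries (SD, n = 3). Per kilobase of transcript this was a mean of 408 CPM for Rps27l and 32.9 CPM for Rps27. All 50-base stretches of the Rps27 coding sequence occur in other annotated genes, against 48.3% of those of Rps27l. Rpl36al, an autosomal copy of the X-linked Rpl36a, held 56.6% ± 1.59 against 58.0% ± 1.61 of its pair, and all 50-base stretches of both coding sequences are shared. Rpl7l1, a nucleolar relative of Rpl7 that acts in ribosome assembly, held 42.3% ± 3.16 against 45.9% ± 1.49 of its pair (SD, n = 3). Rps4y2, which RefSeq lists as the transcribed pseudogene Rps4l on chromosome 6, held 39.0% ± 2.04 of the counts shared with Rps4x against 41.3% ± 2.73 (SD, n = 3). The log2 ratios of Rps27l, Rpl36al, Rpl7l1 and Rps4y2 were 0.16, 0.01, -0.04 and -0.02, and none passed.

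**Figure D3:**
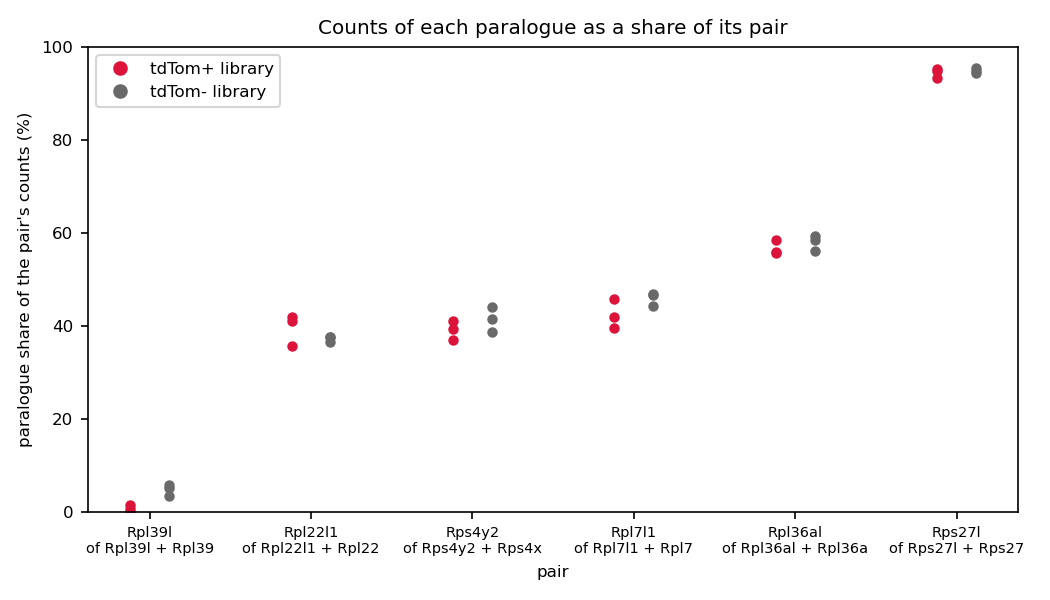
Counts of each paralogue as a percentage of the counts of the pair (vertical axis) for 6 pairs (horizontal axis), with 1 point for each library; shares are of counts and are not corrected for length. The fractions overlap in 5 pairs, while Rpl39l took at most 1.51% in tdTom+ and at least 3.27% in tdTom- libraries.

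Rpl39l and Rpl10l, the paralogues used in the male germ line, had the lowest tdTom+ levels relative to tdTom-, with few counts in either fraction. Rpl39l (chromosome 16, 10170197 to 10174911, mm10) was counted 5, 13 and 0 times in tdTom+ and 24, 43 and 39 times in tdTom- replicates 1, 2 and 3. The groups did not overlap, at 0.543 ± 0.602 against 3.44 ± 1.03 CPM (SD, n = 3). The highest level, 4.37 CPM, was in tdTom- replicate 3, a library with 571 Xist counts and 2 Ddx3y counts. Rpl39l had a log2 ratio of -2.64 ± 1.01 (SE) with a 95% interval from -4.86 to -0.42. It did not pass (edgeR adjusted p = 0.341, and 0.120 to 0.741 over the other settings). The size of the log2 ratio depended on single libraries, at -3.88 without tdTom+ replicate 2 and -2.07 without tdTom+ replicate 3, and it was -3.45 with limma-voom. No 50-base stretch of its coding sequence occurs in another annotated gene. Rpl39, its X-linked counterpart, had a log2 ratio of 0.08 ± 0.11 (SE), and Rpl39l made up 0.707% ± 0.758 of the counts of the pair in tdTom+ and 4.64% ± 1.22 in tdTom- libraries (SD, n = 3).

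Rpl10l (chromosome 12, 66283379 to 66284401, mm10) had 0 counts in each tdTom+ library and 4, 11 and 7 counts in tdTom- replicates 1, 2 and 3. It was too weak to be tested. Taking 3 counts over all tdTom+ libraries as the floor, and the 22 tdTom- counts as exact, gave a bound of 7.80-fold lower in tdTom+ cells. It is not an estimate of the fold. That figure allows for counting error in the tdTom+ libraries only, and not for the spread between libraries. Rpl10l did not pass without the filter on low counts (edgeR adjusted p = 0.244), nor with DESeq2 (adjusted p = 0.222). Rpl3l, the muscle paralogue of Rpl3, was counted 0, 0 and 11 times in tdTom+ and 5, 4 and 3 times in tdTom- replicates 1, 2 and 3, so that the fractions overlapped and 1 library held all tdTom+ counts.

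Germ cell genes moved in the same direction as Rpl39l and Rpl10l. So did the listed hepatoblast and mesenchyme genes, of which 0 of 7 and 0 of 8 tested had a log2 ratio above 0. Dazl, which regulates translation in germ cells, had 0 counts in each tdTom+ library and 183, 255 and 279 counts in tdTom- replicates 1, 2 and 3. The count of Ddx4, a germ cell helicase gene, was 10, 21 and 1 in tdTom+ and 132, 129 and 125 in tdTom- replicates 1, 2 and 3. Of the 6 listed germ cell genes, 4 were at 0 in all tdTom+ libraries, and their part in the values of Rpl39l and Rpl10l was not tested.

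**Figure D4:**
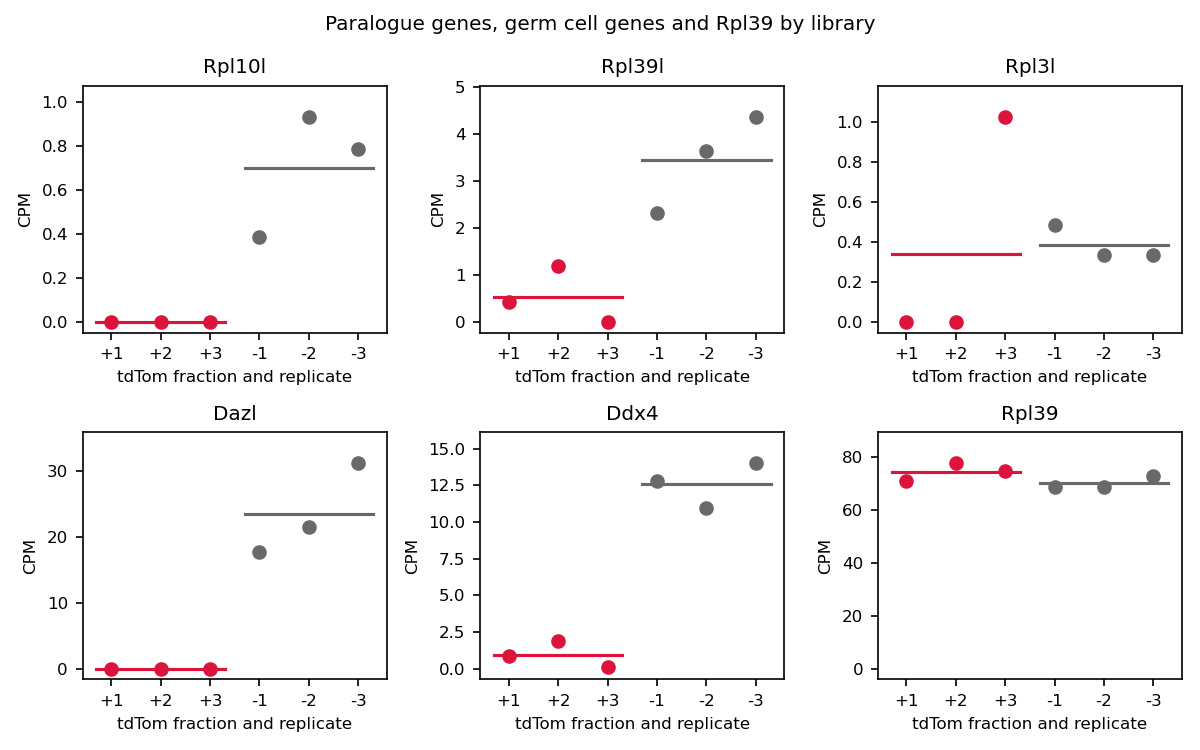
CPM in each library (points, tdTom+ 1 to 3 and tdTom- 1 to 3 along the horizontal axis) and group means (lines) for Rpl10l, Rpl39l, Rpl3l, the germ cell genes Dazl and Ddx4, and Rpl39; each panel has its own vertical scale. Rpl10l and Dazl were at 0 in all tdTom+ libraries, Rpl39l and Ddx4 were lower there, and Rpl39 lay between 68.8 and 77.7 CPM in all 6 libraries.

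How much of a core gene's sequence is shared with other annotated genes bears on how its reads could be counted. Of the 77 core genes, 30 share every 50-base stretch of their coding sequence with another annotated gene, pseudogenes included, 67 share 50% or more, and the median is 93.0%. Rps3 shares 8.09%, Rpl8 8.73% and Rpl4 20.3%. Per kilobase of transcript, the 10 genes under 50% had a median of 447 CPM (213 to 790) and the 67 others one of 189 CPM (3.08 to 677). Across the 77 genes, which share the libraries, Spearman's rho between the level per kilobase and the shared percentage was -0.46, and Pearson's r with the level on the log2 scale was -0.38. The sources used here do not say whether multiply mapped reads were counted, and the part of sequence sharing in these levels was not tested.

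Levels per kilobase thus ranged 257-fold across genes whose proteins are made in matched amounts. Among the highest were Rpl32 (790 CPM per kilobase), Rps14 (677) and Rpl4 (528). Rpl26 had the lowest (3.08), followed by Rpl30 (13.9), Rps27 (32.9) and Rpl34 (35.1), and these 4 share between 72.2% and 100% of their coding 50-base stretches. The length used was that of the shortest annotated transcript with the reference coding sequence. Large and small subunit core genes had medians of 181 and 216 CPM per kilobase.

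**Figure D5:**
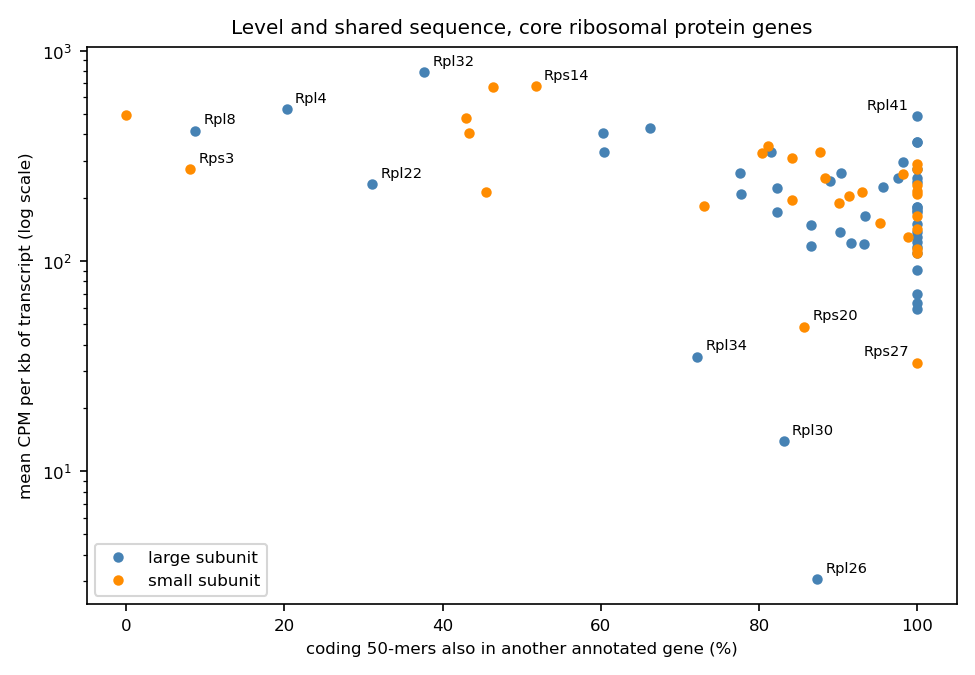
Mean CPM per kilobase over the 6 libraries (vertical axis, log scale) against the percentage of coding 50-base stretches that also occur in another annotated gene (horizontal axis) for the 77 core genes, with some named. The genes under 50% lie between 213 and 790, while those at or above it reach from 3.08 to 677.

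The comparison between fractions was also looked at in the genes whose reads are least ambiguous. Rpl8, a large subunit protein, had 316, 384 and 358 CPM in tdTom+ and 339, 344 and 389 CPM in tdTom- replicates 1, 2 and 3, a log2 ratio of -0.02 ± 0.09 (SE, edgeR adjusted p = 0.971). The groups overlapped, with tdTom+ replicate 1 the lowest of all libraries. Rpl4, also of the large subunit, had a log2 ratio of 0.04 ± 0.06 (SE, edgeR adjusted p = 0.901). Over the 15 tested genes with under 50% shared, paralogues included, the median was 0.06 with 11 above 0, and over the 69 with 50% or more it was 0.11 with 62 above 0.

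Genes outside the rule that belong to the same machinery did not pass the test either. Fau and Gnb2l1, which encode further ribosomal proteins, had log2 ratios of 0.04 and 0.09 (edgeR adjusted p = 0.957 and 0.751). Of 15 other genes known for a terminal oligopyrimidine tract, 0 passed, with a median of 0.09. Their smallest p belonged to Eef1b2, an elongation factor subunit, at 223 ± 25.8 against 182 ± 11.3 CPM (SD, n = 3, edgeR adjusted p = 0.258). Of 33 translation factor genes 0 passed (median 0.06), and of 76 genes of the mitochondrial ribosome 0 passed (median 0.10, 59 above 0). Of the 6 rows named as ribosomal protein pseudogenes 3 could be tested and 0 passed.

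Among 35 ribosome biogenesis genes 0 were called, with a median of 0.02, and among 11 genes of RNA polymerase I, which transcribes ribosomal RNA, 0 were called, with a median of 0.14. In the 15 genes of the mTOR pathway and its links to the ribosome the median was -0.05 and 0 passed. Mycn, a transcription factor that drives ribosome production, came closest, at 89.6 ± 7.86 against 124 ± 3.82 CPM (SD, n = 3), a log2 ratio of -0.47 ± 0.10 (SE, edgeR adjusted p = 0.0535). Its adjusted p was 0.0388 with no filter on low counts, 0.0421 with a stricter one, 0.0486 with library totals only and 0.00352 with DESeq2, and it reached 0.206 without tdTom- replicate 2. Its relative Myc had 144 ± 3.39 against 123 ± 2.95 CPM (SD, n = 3, edgeR adjusted p = 0.319).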

How the data were processed

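Endothelial cells sorted from whole embryos gave RNA that was amplified with the SMART-seq v4 kit and made into libraries with Nextera XT, per the labels' protocols. This chemistry is unstranded, so reads of overlapping antisense genes cannot be told apart. Per the submitters' processing notes, which give neither role nor order, featureCounts 1.4.6, DESeq2, STAR 2.5.2b, Trimmomatic 0.36.4 and Picard 2.7.1.1 were used with mm10. The authors deposited a read count for each gene in each library, used here without change. Alongside the counts stand the authors' own adjusted p-value and log2 fold change, whose direction was turned to tdTom+ over tdTom-. The table's 6 normalized per-sample columns were not used.

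Groups came from the sample titles. The ribosomal protein genes, lists and tests were chosen with earlier results of these data known. Counts were fitted over all genes with edgeR 4.0.16 in R 4.3.3 (TMM, filterByExpr minimum count 10, robust quasi-likelihood F-test, two-sided), with Benjamini-Hochberg adjustment over 13142 genes at 0.05. CPM used TMM-scaled totals, and the SE of a log2 ratio is that ratio over the root of its F statistic. The common biological coefficient of variation was 23.2%. Data were simulated for this comparison over 13015 genes, with the same biological coefficient of variation for every gene. In them the fit recovered 8%, 52%, 96% and 100% of 50 genes each changed 1.5, 2, 4 and 8-fold. Of its calls there, 5.19% were false. A floor of 3 counts was 0.254 to 0.336 CPM in a library. Replicates of a group differed by far more than sampling noise (mean chi-square per gene 6.92 to 17.2), so each counted as 1 sample. DESeq2 1.42.0 and limma-voom (limma 3.58.1) were alternatives, beside other filters, scalings, a replicate block and leaving out each library.

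Named genes were both genes of each paralogue pair, the 5 largest log2 ratios (tdTom+ over tdTom-) in each direction where the mean log2 CPM was 3 or more, genes with a set role (stalk, 5S particle, X-linked and others), and up to 3 genes of each other list with the smallest p. Genes named for a level, a shared sequence, a spread or non-overlapping groups were chosen after their values were seen. All 86 rows matched the annotation (Rps4y2 by its RefSeq synonym). Coding sequences of 1 transcript per gene from GENCODE M21 were cut into 50-base stretches and searched in all annotated transcripts of other genes. Transcript starts came from RefSeq on GRCm38.p6. Rpl3l and Rpl10l were too weak to test. Results of some genes are not reported here.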

Additional observations from a re-analysis of the deposited data

How the results depend on the processing

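No ribosomal protein gene passed under any of the 14 settings tried (other filters, scalings without TMM or without the ribosomal protein rows, DESeq2 size factors, DESeq2, limma-voom, the replicate block and each library left out). The count over all genes rose from 208 to 502 with DESeq2 and ran from 62 to 189 when 1 library was left out (126 without tdTom+ replicate 1, and 83, 71 and 62 without tdTom- replicates 1, 2 and 3). The median log2 ratio of the ribosomal protein genes stayed above 0, from 0.04 to 0.16 with 1 library left out, and the difference in their share of counts ran from 0.0269 (without tdTom+ replicate 2) to 0.157 percentage points (without tdTom+ replicate 1). Of 517 values of single genes under an alternative 492 kept direction and side of the threshold, 5 passed where the reported one did not (all Mycn) and 20 changed sign, each with a library left out. Leaving out 1 library moved the log2 ratio from -0.12 to 0.063 for Rplp1, -0.085 to 0.012 for Rpl38, -0.10 to 0.034 for Rpl7l1, -0.063 to 0.12 for Rpl3, -0.046 to 0.082 for Rpl36al, -0.12 to 0.058 for Rps4y2, -0.044 to 0.11 for Rplp2, -0.086 to 0.023 for Rpl11, -0.0026 to 0.069 for Rpl4 and -0.087 to 0.052 for Rpl8. The protocol divides cells of 3 embryos into both fractions, but no label ties a number to an embryo. Deviations of same-numbered libraries from their group means correlated over all genes tested at r = 0.11, 0.09 and 0.16. There each library correlated best with its own number, a hint from the data and not the design. Over the tested ribosomal protein genes the same r was 0.10, 0.40 and -0.16. In those genes tdTom+ replicates 1 and 3 correlated better with a library of another number. Markers of sex set both libraries numbered 3 apart from the rest. Xist had 1224 and 571 counts there and at most 8 elsewhere, and Ddx3y 12 and 2 counts there and 1204 to 1537 elsewhere. These markers do not separate numbers 1 and 2. With the number as a replicate block 295 genes were called, 0 of them ribosomal protein genes, whose median was 0.10, and Mycn passed (adjusted p = 0.0463). Of the marker lists, 9 rather than 6 megakaryocyte and platelet genes and 2 rather than 1 erythroid genes rose with the block, and 2 hepatoblast genes and 1 mesenchyme gene fell, where 0 did without it, among them Dlk1 and Lum (edgeR adjusted p = 0.000865 and 0.0213). Depth limits Rpl39l, Rpl10l, Rpl3l and Rpl26 to at most 106 counts in all 3 libraries of a group. Changes near 1.5-fold were mostly missed in simulated data, where every gene had the same biological coefficient of variation. That setting does not describe the 78 more abundant ribosomal protein genes, whose 95% intervals lay between 0.768-fold and 1.49-fold.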

Other observations

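Rpl29 had 89.4, 104 and 61.2 CPM in tdTom+ and 87.0, 80.3 and 61.6 CPM in tdTom- replicates 1, 2 and 3, and was the 1 tested ribosomal protein gene with both libraries numbered 3 below the other 4. These are the libraries with Xist counts. The choice of Rpl29 was made from these values. Rpl18, Rpl37 and Rplp1 had both libraries numbered 3 above the other 4. Parts of the Rpl29 coding sequence, in stretches of 50 bases, occur in 84 other annotated genes, so its counts are uncertain.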
